A study of Bos taurus with 16 samples.

Results

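The genes examined were 10 immediate early transcription factors (FOS, FOSB, FOSL2, JUN, JUNB, JUND, EGR1, EGR2, ATF3 and NR4A1), measured in CD14+ cells sorted from the endometrium and from the blood of the same 4 pregnant cows. They were found through the gene name of the array's probes or the gene symbol in a probe's description. Of 21475 probes that were not controls, 11 represented the 10 genes. FOSB had 2 probes, 1 annotated with the symbol in another field and 1 annotated by a gene identifier that a reference gene table gives to FOSB, so that 9 of the 10 genes were found by gene name or description alone. Every other gene had 1 probe.

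Immediate early genes are transcribed soon after a cell receives a signal, without new protein synthesis, because the factors that switch them on are already present and are activated by kinases. Their products are mostly transcription factors. FOS and JUN family proteins form the dimeric factor AP-1, EGR1 and EGR2 bind through zinc fingers, ATF3 is a stress-induced relative of the AP-1 proteins, and NR4A1 is an orphan nuclear receptor. In monocytes and macrophages, these genes respond to adhesion, growth factors, microbial products and stress, and EGR and AP-1 factors also take part in the maturation of monocytes to macrophages. Many of their messengers are short-lived.

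Animals 1, 2, 3 and 4 were at day 164, 239, 242 and 248 of pregnancy. All tissue came from an abattoir. Endometrial CD14+ cells were sorted from interplacentomal endometrium that had been minced and dispersed with collagenase, and blood CD14+ cells were sorted from mononuclear cells of blood left in the heart, which was not digested. Tissue and cell preparation therefore cannot be told apart. RNA of both tissues of an animal was amplified and hybridized together on 2-colour arrays, with 2 technical replicates per animal on 8 arrays, and dyes were swapped between technical replicates in animals 1, 2 and 4. No treatment or genetic change was applied. Levels are log2 normalized intensities and ratios are log2 values of endometrium over blood within an animal, so that a ratio of 1 is a doubling. In bulk RNA, fewer cells of a type and less RNA per cell cannot be told apart. All 11 probes were well above background in every channel, and none was saturated.

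The CD14+ label was compared with cell type markers. CD14 itself had a level of 16.12 in blood and 14.04 in endometrium of animal 1, against 5.76 to 8.85 in blood and 6.07 to 9.5 in endometrium of animals 2, 3 and 4. The blood preparation of animal 1 stood apart in other lists too. The summed linear level of 8 granulocyte markers was 240000 there and 2630 to 6370 in the other blood preparations. S100A12 and CSF3R, which monocytes also express, carried that sum. CXCR2 (9.78 against 6.41 to 8.44), LTF (8.08 against 3.04 to 6.09) and PGLYRP1 (8.72 against 8.08 to 8.59) were highest there too. The levels of CCR3 (6.41 against 6.4 to 8.88), MPO (6.94 against 6.45 to 7.51) and CAMP (3.41 against 2.8 to 4.38) were not high. The sum of 9 natural killer and T cell markers was 8310 there and 71000 to 130000 in the others. The sum of 10 monocyte and macrophage markers was 302000 there and 6530 to 16500 in the other blood preparations. In endometrium that sum was 465000 in animal 1 and 18600 to 89900 in the others. Natural killer and T cell sums of endometrium were 58900 and 147000 to 338000. In both tissues, the natural killer and T cell sum exceeded the monocyte and macrophage sum in animals 2, 3 and 4. The reverse held in animal 1. CD14+ is thus the sorting label throughout. Ratios of the 10 genes and counts of the lists are therefore given with and without animal 1.

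The parts of the probe sequences shown here, 5′ to 3′, are those of the 3 genes whose levels did not overlap between tissues (FOS, JUN and the brighter FOSB probe), together with the other FOSB probe, because the FOSB probes gave unlike ratios in animal 4. The sequences are from the array files, and 30 of the 60 bases are printed, or 54 bases in the case of FOSB probe 2. Capitals mark ATTTA, the pentamer found in AU-rich elements of short-lived messengers, in FOS; AATAAA, the polyadenylation signal, in FOSB probe 1; and in FOSB probe 2 the stop codon that ends the reading frame opened at its base 1.
FOS: acttgaatgaaaaATTTAagcattgtttgc
FOSB probe 1: tgcactgtcgccAATAAAaaactcttaaaa
FOSB probe 2: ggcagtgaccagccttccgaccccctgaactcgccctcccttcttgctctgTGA
JUN: actgtcgggggctgaggggcaacggagaaa
ATTTA was present as printed in 2 of the 11 probes (FOS and JUNB) and in 7.68% of all probes, and on the other strand in 2 of 11 (JUN and ATF3) and in 10.3% of all. AATAAA was present as printed in 1 of 11 and in 11.8% of all, and on the other strand in 2 of 11 (JUNB and EGR1) and in 3.88% of all. The motifs were searched over the whole probe, and matches of AATAAA and ATTTA may share bases.

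The first question was whether the immediate early factors differed between endometrial and blood CD14+ cells. Each gene was counted by its brightest probe. So counted, FOSB, FOS, JUN, EGR1 and ATF3 were higher in endometrium than in blood in each of the 4 animals, with mean ratios from 1.27 to 3.17. At the other FOSB probe, animal 4 had a ratio of -0.28 and the tissues overlapped. JUNB, JUND, FOSL2, EGR2 and NR4A1 had mean ratios from -0.35 to 0.38 and differed in direction between animals. By limma with Benjamini-Hochberg adjustment over 16653 probes, 0 of the 10 genes were called, a call being an adjusted p no higher than 0.05 together with a change of more than 2-fold, where 1.35% of all probes tested were called in either direction. Without the adjustment (p no higher than 0.05, more than 2-fold, called the unadjusted threshold here), 5 of the 10 genes met the criteria with higher levels in endometrium and 0 with lower levels. The background of limma at that threshold was 7.98% of probes higher and 8.05% lower in endometrium. The methods' analysis of variance gave the same counts of the 10 genes, 0 after adjustment and 5 without it. Of the 16653 probes it called 0 after adjustment, and 632 were higher and 597 lower without it. For comparison, 9.82% of all probes tested were higher in endometrium in 4 of 4 animals, as were 5 of the 10 genes. Levels of the tissues did not overlap for 3 of the 10 genes (FOS, FOSB and JUN), and 2.7% of all probes tested did not overlap with endometrium higher. The median ratio was 0.82 over the 10 genes and -0.14 over all probes, or 1.09 and -0.09 without animal 1.

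**Figure D1:**
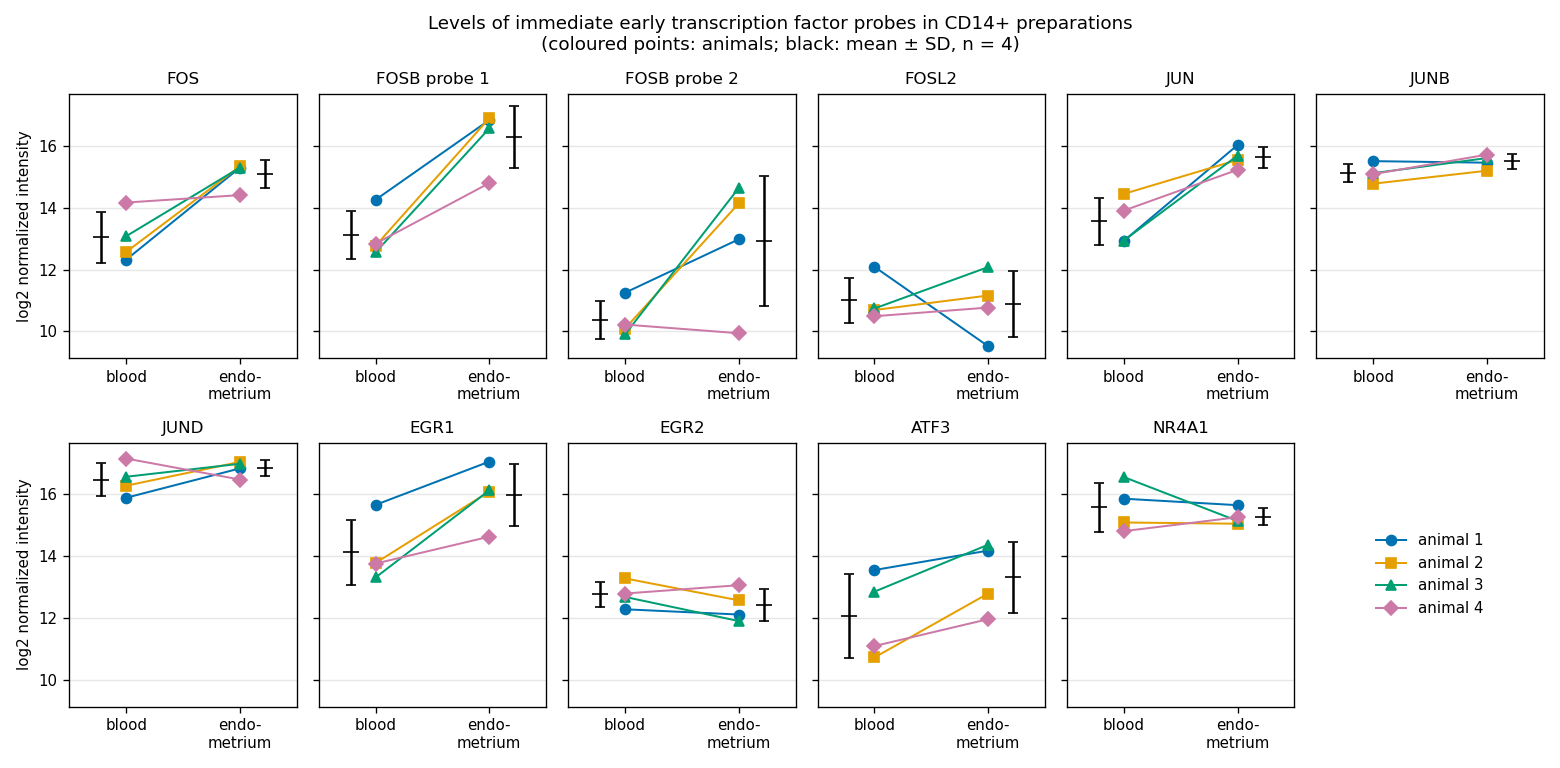
Level of each probe (log2 normalized intensity) in blood and endometrial CD14+ cells, with lines joining both tissues of an animal and black marks giving the mean ± SD of 4 animals. Lines of FOS, FOSB probe 1, JUN, EGR1 and ATF3 run upward in all 4 animals, while those of JUNB, JUND, FOSL2, EGR2 and NR4A1 run both ways.

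FOS is the founding member of the FOS family, whose proteins need a JUN partner to bind DNA. Its level in blood was 12.32, 12.57, 13.08 and 14.17 in animals 1 to 4, and in endometrium it was 15.30, 15.34, 15.30 and 14.41. Endometrium was higher in every animal and the tissues did not overlap, but the blood of animal 4 was the highest of the blood preparations and its endometrium the lowest of the endometrial ones. The ratios were thus 2.98, 2.77, 2.21 and 0.24, with a mean of 2.05 ± 0.59 (SE, n = 4), or 4.14-fold, and an adjusted p of 0.197. Without animal 1 the ratio was 1.74, and without animal 4 it was 2.65. The spread of FOS between the first 3 endometrial preparations was small beside the distance to animal 4.

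FOSB is a FOS relative that is induced together with FOS. At probe 1, the brighter, the level in blood was 14.26, 12.77, 12.56 and 12.84 in animals 1 to 4, and in endometrium 16.84, 16.90, 16.57 and 14.80. All endometrial preparations were above all blood preparations, although the endometrium of animal 4 was close to the blood of animal 1. The ratios of 2.58, 4.13, 4.01 and 1.96 averaged 3.17 ± 0.56 (SE, n = 4), or 9.01-fold, with an adjusted p of 0.0522, the lowest of the 10 genes. This was the member nearest to the threshold, and its call depended on the settings. FOSB was called with technical replicate 2 alone (ratio 3.34, adjusted p = 0.0459) but not with technical replicate 1 alone (3.01, adjusted p = 0.0651), and it was called when only probes well above background in all 8 channels of a tissue were tested (adjusted p = 0.0255). Without animal 1 the ratio was 3.37, with an adjusted p of 0.14.

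FOSB probe 2 had levels of 11.25, 10.09, 9.90 and 10.22 in blood and of 12.98, 14.14, 14.64 and 9.94 in endometrium. Here the first 3 animals were higher in endometrium and animal 4 was not, so that the tissues overlapped. The ratios were 1.73, 4.05, 4.74 and -0.28, with a mean of 2.56 ± 0.86 (SE, n = 4) and an adjusted p of 0.239. Without animal 1 the mean was 2.83. Both FOSB probes had their larger ratios in animals 2 and 3. They disagreed in animal 4, in which the ratio was 1.96 at the probe that holds the polyadenylation signal and -0.28 at the probe that holds the stop codon.

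FOSL2, also known as FRA2, is a FOS family member that lacks a strong activation domain. Its level was 12.09, 10.69, 10.74 and 10.49 in blood and 9.52, 11.16, 12.08 and 10.77 in endometrium. Animal 1 ran against the others, with the highest blood level and the lowest endometrial level. The ratios were -2.58, 0.47, 1.34 and 0.29, and the mean of -0.12 had a 95% interval from -1.78 to 1.54 (adjusted p = 0.956). The direction rested on animal 1, since without it the ratio was 0.70, and the ratio was 0.16 with intensities renormalized from the scanner signals.

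JUN is the AP-1 partner with the strongest activation domain of its family. Blood levels were 12.93, 14.45, 12.94 and 13.91 in animals 1 to 4, and endometrial levels were 16.03, 15.55, 15.69 and 15.23. The tissues did not overlap, and the 2 animals with the lower blood levels, 1 and 3, had the larger ratios. These were 3.11, 1.1, 2.74 and 1.33, with a mean of 2.07 ± 0.54 (SE, n = 4), or 4.19-fold, and an adjusted p of 0.173. Leaving out animal 1 gave 1.72 and leaving out animal 2 gave 2.39.

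JUNB and JUND are JUN relatives that activate many AP-1 sites more weakly than JUN, and JUND is known for a steadier expression. JUNB had levels of 15.51, 14.78, 15.12 and 15.09 in blood and of 15.46, 15.20, 15.61 and 15.72 in endometrium. Its ratio was -0.04 in animal 1 and 0.42 to 0.63 in the others, and the mean of 0.38 had a 95% interval from -0.67 to 1.42 (adjusted p = 0.724), with 0.51 when animal 1 was left out. JUND had levels of 15.89, 16.28, 16.57 and 17.16 in blood and of 16.84, 17.05, 16.99 and 16.48 in endometrium. Its blood level was highest in animal 4, the only animal in which blood exceeded endometrium. The mean ratio of JUND was 0.37, with a 95% interval from -0.80 to 1.53 (adjusted p = 0.762), and was 0.17 without animal 1. These intervals hold 0 and also ratios over 1, so that a doubling was not excluded for either gene.

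EGR1 is a zinc finger factor that is induced through SRF and its ETS partners, and that is linked with monocyte differentiation. Its level was 15.66, 13.78, 13.31 and 13.76 in blood of animals 1 to 4 and 17.06, 16.09, 16.13 and 14.63 in endometrium. Every animal was higher in endometrium, but the tissues overlapped, since the blood of animal 1 exceeded the endometrium of animal 4. The ratios were 1.4, 2.31, 2.83 and 0.87, with a mean of 1.85 ± 0.52 (SE, n = 4), or 3.61-fold, and an adjusted p of 0.19. Without animal 1 the ratio was 2.00.

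EGR2 is a relative of EGR1. Its levels were 12.28, 13.28, 12.68 and 12.79 in blood and 12.11, 12.57, 11.90 and 13.06 in endometrium. Blood was higher in animals 1, 2 and 3 and endometrium in animal 4, and the mean ratio of -0.35 had a 95% interval from -1.43 to 0.74 (adjusted p = 0.76). It was -0.41 without animal 1. Animal 4, with the smallest EGR1 ratio, was thus the only animal with a positive EGR2 ratio.

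ATF3 is a stress-induced factor that can form dimers with JUN proteins and dampens inflammatory transcription in macrophages. Its level was 13.55, 10.72, 12.85 and 11.09 in blood and 14.18, 12.79, 14.37 and 11.96 in endometrium. Differences between animals were as wide as those between tissues, with animals 1 and 3 above animals 2 and 4 in both tissues. Within animals the ratios were 0.63, 2.07, 1.52 and 0.87, all positive, and their mean was 1.27 ± 0.48 (SE, n = 4), or 2.42-fold (adjusted p = 0.272). ATF3 met the unadjusted threshold with all 4 animals and without animal 1 (ratio 1.49), but not without animal 2, 3 or 4.

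NR4A1, also known as NUR77, is an orphan nuclear receptor that is induced in activated leukocytes. Its level was 15.86, 15.09, 16.56 and 14.81 in blood and 15.65, 15.05, 15.14 and 15.26 in endometrium. Blood of animal 3 was the highest, and the ratios were -0.20, -0.04, -1.42 and 0.45. Their mean of -0.30 had a 95% interval from -1.49 to 0.89 (adjusted p = 0.812), and the ratio was -0.34 without animal 1 and 0.07 without animal 3.

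**Figure D2:**
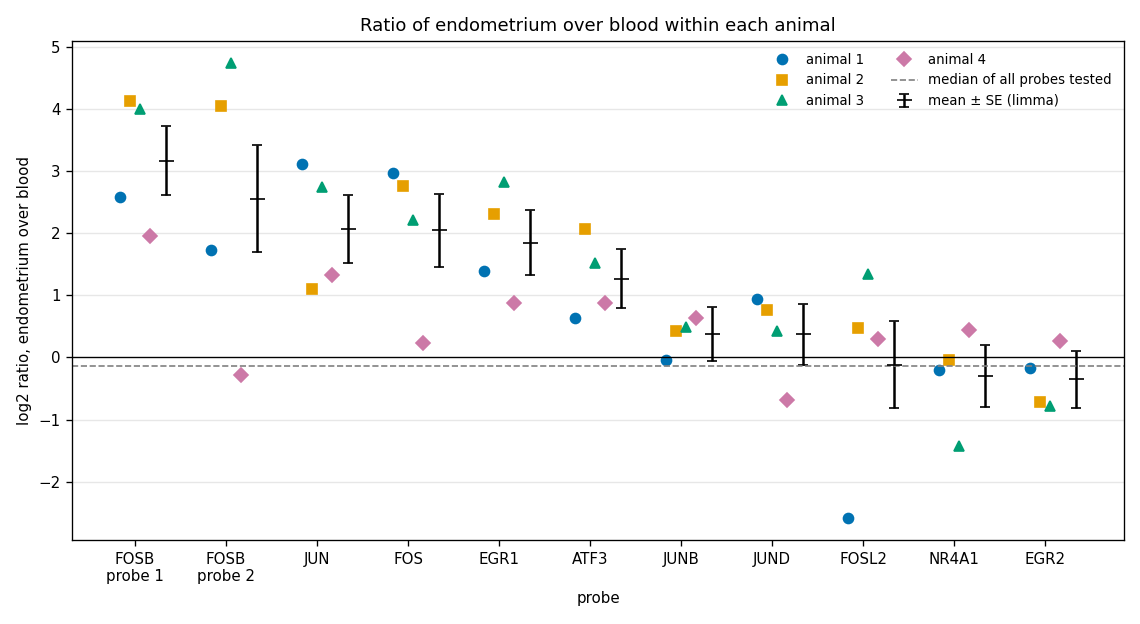
Log2 ratio of endometrium over blood in each animal (coloured points) for the 11 probes in descending order of their mean, with the mean ± SE of the limma fit in black and the median of all probes tested, -0.14, as a dashed line. The first 6 probes lie mostly above 1, and animal 4 has the lowest or the second lowest ratio of each of them.

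In order of the mean ratio of the brightest probe, FOSB (3.17) was followed by JUN (2.07), FOS (2.05), EGR1 (1.85), ATF3 (1.27), JUNB (0.38), JUND (0.37), FOSL2 (-0.12), NR4A1 (-0.30) and EGR2 (-0.35). The 95% intervals of all neighbours in this order overlapped, and differences between genes were not tested. At FOSB, 2.11% of the probes tested had a larger ratio, and the corresponding shares were 5.69% at JUN, 5.76% at FOS, 6.86% at EGR1 and 11.4% at ATF3. Technical replicates of a preparation differed by at most 0.88 at any of the 11 probes, and the median difference was 0.14.

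The animals differed in the size of these ratios. Over the 10 genes, the median ratio was 0.79, 0.94, 1.43 and 0.54 in animals 1 to 4, against medians over all probes of -0.24, -0.10, -0.13 and -0.05. Animal 4, at the latest day of pregnancy, had the smallest ratio of FOS, FOSB and EGR1, animal 2 that of JUN and animal 1 that of ATF3. With 1 animal at each day, day of pregnancy and animal cannot be told apart. The blood of animal 1 had the highest level of FOSB, FOSL2, JUNB, EGR1 and ATF3 and the lowest level of FOS, JUN (12.93 against 12.94 in animal 3), JUND and EGR2 among the blood preparations. The same 5 genes met the unadjusted threshold without animal 1, and 4 of them, all but ATF3, when animal 2, 3 or 4 was left out. Of 16653 probes, 1054 were higher in endometrium at that threshold without animal 1. Without animal 2, 3 or 4, 1171, 988 and 1335 were.

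Markers of other cell types moved with tissue as well. All 10 epithelial markers met the unadjusted threshold with higher levels in endometrium, and 6 of them were called after adjustment. Their summed linear level was 1840 to 7850 in blood and 37400 to 360000 in endometrium, or 1130 to 6970 and 10100 to 160000 without SERPINA14, the uterine serpin. Of 10 trophoblast markers 9 were higher and 1 was lower at the unadjusted threshold, and 8 were called, with sums of 6920 to 25200 in blood and 51600 to 164000 in endometrium. The lower one was PAG1, taken at the brighter of 2 probes, with ratios from -4.56 to -0.78 in the 4 animals. It carried 68.4% to 90.6% of the blood sums. Without PAG1 the sums were 1450 to 3620 in blood and 48200 to 164000 in endometrium. Whether the PAG1 probe measures a trophoblast gene was not tested. Stromal markers (6 of 10 higher, 0 lower) summed to 8520 to 110000 in blood and 6640 to 313000 in endometrium, or 296 to 4940 and 433 to 283000 without VIM, which leukocytes express too, and endothelial markers (2 of 7 higher, 0 lower) to 355 to 1820 and 453 to 24400. No defining marker of epithelium or stroma was below background in every channel. In blood, however, ESRP1, COL3A1, LUM and THY1 were well above background in only 2 of 8 channels each. Monocyte and macrophage markers were higher for 7 of 10 genes and lower for 0, with 4 called (MRC1, MSR1, C1QA and C1QB), and summed to 6530 to 302000 in blood and 18600 to 465000 in endometrium. B cell markers were higher for 0 and lower for 5 of 8 genes, with sums of 25100 to 175000 in blood and 11000 to 62100 in endometrium. Of natural killer and T cell markers 3 of 9 were higher and 0 lower, with sums of 8310 to 130000 and 58900 to 338000, and of 7 granulocyte markers tested 1 was higher and 3 were lower, with sums over 8 genes of 2630 to 240000 and 1070 to 22700. In the endometrium of animal 4, whose FOS and EGR1 ratios were the smallest, the epithelial sum was 188000, of which SERPINA14 made up 94.3%, and the other 9 epithelial markers summed to 10700, against 20400, 10100 and 160000 in animals 1, 2 and 3. Without animal 1, 8 epithelial, 9 trophoblast, 5 stromal, 1 endothelial, 6 monocyte and macrophage, 0 natural killer and T cell, 0 B cell and 1 granulocyte markers were higher at the unadjusted threshold, 6 B cell, 2 granulocyte and 1 trophoblast markers were lower, and 3 epithelial, 6 trophoblast and 1 monocyte and macrophage markers were called. The part of these cell types in the ratios of the immediate early factors was not tested.

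**Figure D3:**
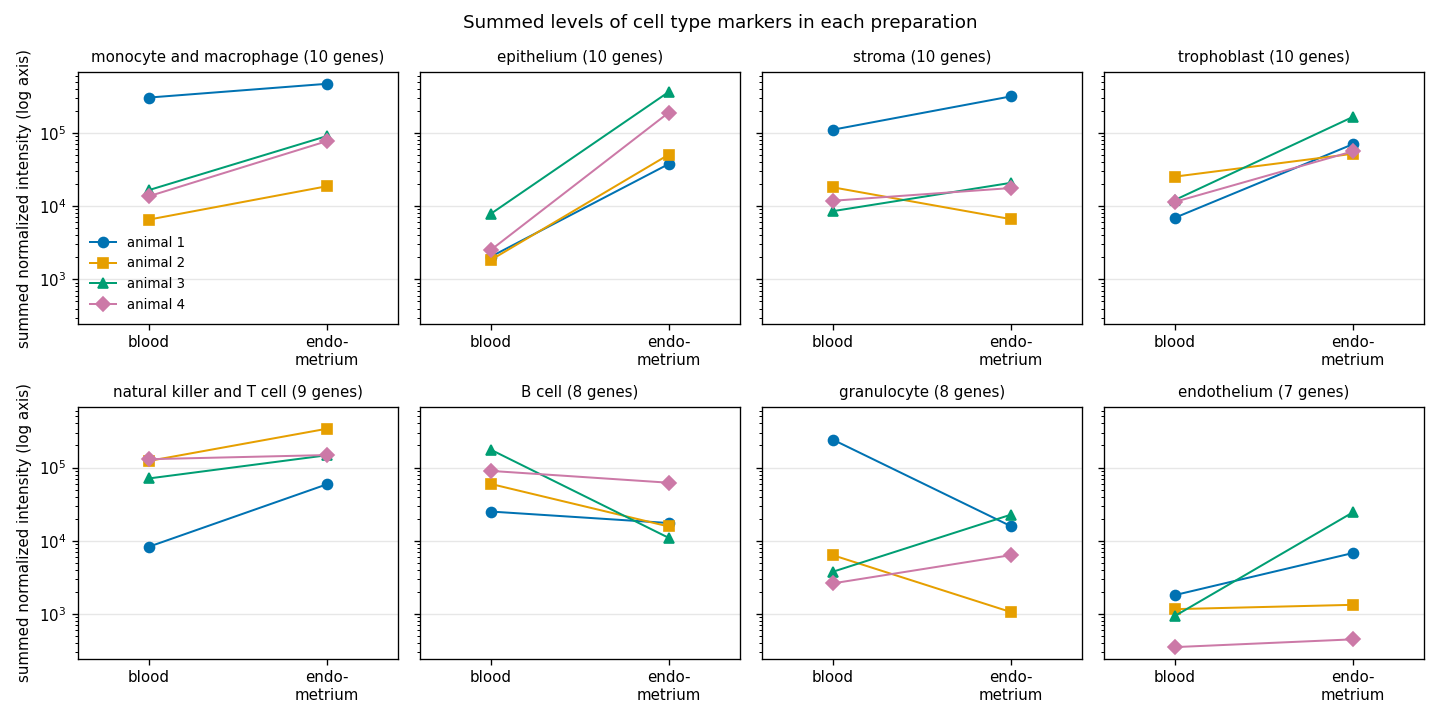
Summed linear normalized intensity of the markers of each cell type (log axis) in blood and endometrial CD14+ preparations, with lines joining both tissues of an animal. Epithelial and trophoblast sums are higher in endometrium in all 4 animals, and the blood of animal 1 stands apart in the monocyte, granulocyte, stromal, and natural killer and T cell sums. SERPINA14, VIM and S100A12 carry much of the epithelial, stromal and granulocyte sums, and PAG1 carries much of the trophoblast sums in blood.

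Genes that work with or around the immediate early factors were then compared, using the brightest probe of each gene and the unadjusted threshold, since few were called after adjustment. Among 15 AP-1 partners and relatives, 0 were higher and 3 were lower, with a median ratio of -0.26. The lower ones were MAFK (-1.99 ± 0.59, SE) and MAFG (-1.28 ± 0.49), which are small MAF proteins that pair with other leucine zipper factors, and CREM (-1.79 ± 0.58), a factor that binds cyclic AMP response elements. The other probe of MAFG had a ratio of 0.00, and the other probes of CREM had ratios of -1.92 and 0.36. Of 5 relatives and corepressors of EGR and NR4A factors 0 were higher and 2 were lower, with a median of -0.46. These were NR4A3 (-2.20 ± 0.70), a relative of NR4A1, and NAB1 (-1.28 ± 0.52), a corepressor of EGR proteins. None of the genes of either list was called after adjustment. Without animal 1, 1 AP-1 relative was higher and 1 (MAFK) was lower, with a median of -0.71, and 0 genes of the EGR and NR4A list met the threshold, with a median of -0.16.

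Of 19 upstream kinases and factors 1 was higher and 3 were lower, with a median of -0.46. MAPK3, the kinase ERK1, had levels of 12.35, 12.80, 11.21 and 11.84 in blood and of 13.04, 14.28, 12.86 and 12.95 in endometrium, and was higher in endometrium in all 4 animals with a ratio of 1.23 ± 0.45. RPS6KA5, the kinase MSK1 that phosphorylates histone H3 and CREB at immediate early genes, had a ratio of -2.57 ± 0.71, MAP2K4, which activates JNK, of -1.37 ± 0.50, and CREBBP, a coactivator of CREB, of -1.24 ± 0.46. All 4 genes had the same direction in every animal, and none was called (adjusted p from 0.186 to 0.268). MAPK3 (1.41) and RPS6KA5 (-2.78) met the threshold without animal 1 too, and the other 2 did not, with a list median of -0.24.

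Of 37 other early response genes 5 were higher and 6 were lower in endometrium, 26 did not meet the unadjusted threshold, and 0 were called. Their median ratio was -0.33, against 0.82 for the 10 factors. The higher ones were CTGF (5.30 ± 1.32) and CYR61 (4.25 ± 1.47), which encode secreted matrix-associated proteins, the zinc finger factors KLF4 (2.16 ± 0.63) and KLF6 (1.38 ± 0.49), and DUSP6 (1.48 ± 0.56), a phosphatase of ERK. In animal 2 both CTGF and CYR61 had negative ratios, -0.40 and -1.99, and in the other animals ratios of 4.86 to 7.43, and without that animal both were called (7.20 and 6.33, adjusted p = 0.0287 for each). The 5 lowest ratios belonged to PTGS2 (-3.08 ± 0.85), the inducible cyclooxygenase, TNFAIP3 (-2.48 ± 0.76), an inhibitor of NF-kB signaling, the kinase PLK3 (-1.64 ± 0.61), and the MAP kinase phosphatases DUSP5 (-1.62 ± 0.66) and DUSP2 (-1.59 ± 0.60). PTGS2 had a level of 17.49 in the blood of animal 1 and of 11.61 to 12.12 in that of the others. Without animal 1, 2 of the 37 genes were higher (CTGF and KLF4) and 3 were lower, with a median of -0.23. The difference between this list and the 10 factors was not tested.

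Heat shock genes, which encode chaperones that are induced by protein stress, had 5 of 16 members higher and 0 lower, with a median ratio of 0.79, and 2 were called. HSPA6, an inducible HSP70 gene, had levels of 8.65, 5.65, 6.43 and 4.79 in blood and of 13.21, 13.23, 12.96 and 9.31 in endometrium. The tissues did not overlap, and its ratio of 5.80 ± 0.66 was called (adjusted p = 0.0111). HSPA1B was called as well (3.70 ± 0.49, adjusted p = 0.0188), and HSPA1A was close to the threshold (3.71 ± 0.65, adjusted p = 0.0523). HSPA1A and HSPA1B are near-identical genes that probes may not separate. DNAJB1 (1.72 ± 0.58) and HSPB1 (1.39 ± 0.53) met the unadjusted threshold alone. Without animal 1, 3 heat shock genes were higher, with a list median of 0.77, and HSPA6 was called (6.21, adjusted p = 0.0478) but HSPA1B was not (3.85, adjusted p = 0.0823). As at FOS and FOSB, the endometrium of animal 4 had the lowest level of HSPA6 and HSPA1A, 9.31 and 16.08, among the endometrial preparations. The part of cell preparation in either group of genes was not tested.

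Of 15 genes known to be associated with AP-1 sites, 4 were higher, 3 were lower and 8 did not meet the unadjusted threshold, with a median ratio of 0.54. SPP1, osteopontin, was called (5.0 ± 0.59, adjusted p = 0.0127). The heme oxygenase HMOX1 (2.97 ± 0.68), the chemokine CCL2 (2.41 ± 0.52) and the collagenase MMP1 (2.28 ± 0.80) were higher at the unadjusted threshold, and IL1B (-2.57 ± 0.75), IL8 (-2.08 ± 0.65) and PLAUR (-1.73 ± 0.69), the urokinase receptor, were lower. Without animal 1, 3 genes were higher and 0 were lower, with a median of 0.64, and SPP1 was not called (4.5, adjusted p = 0.0581). MMP1 (1.39) then no longer met the unadjusted threshold, and its ratio in animal 4 was -0.02.

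**Figure D4:**
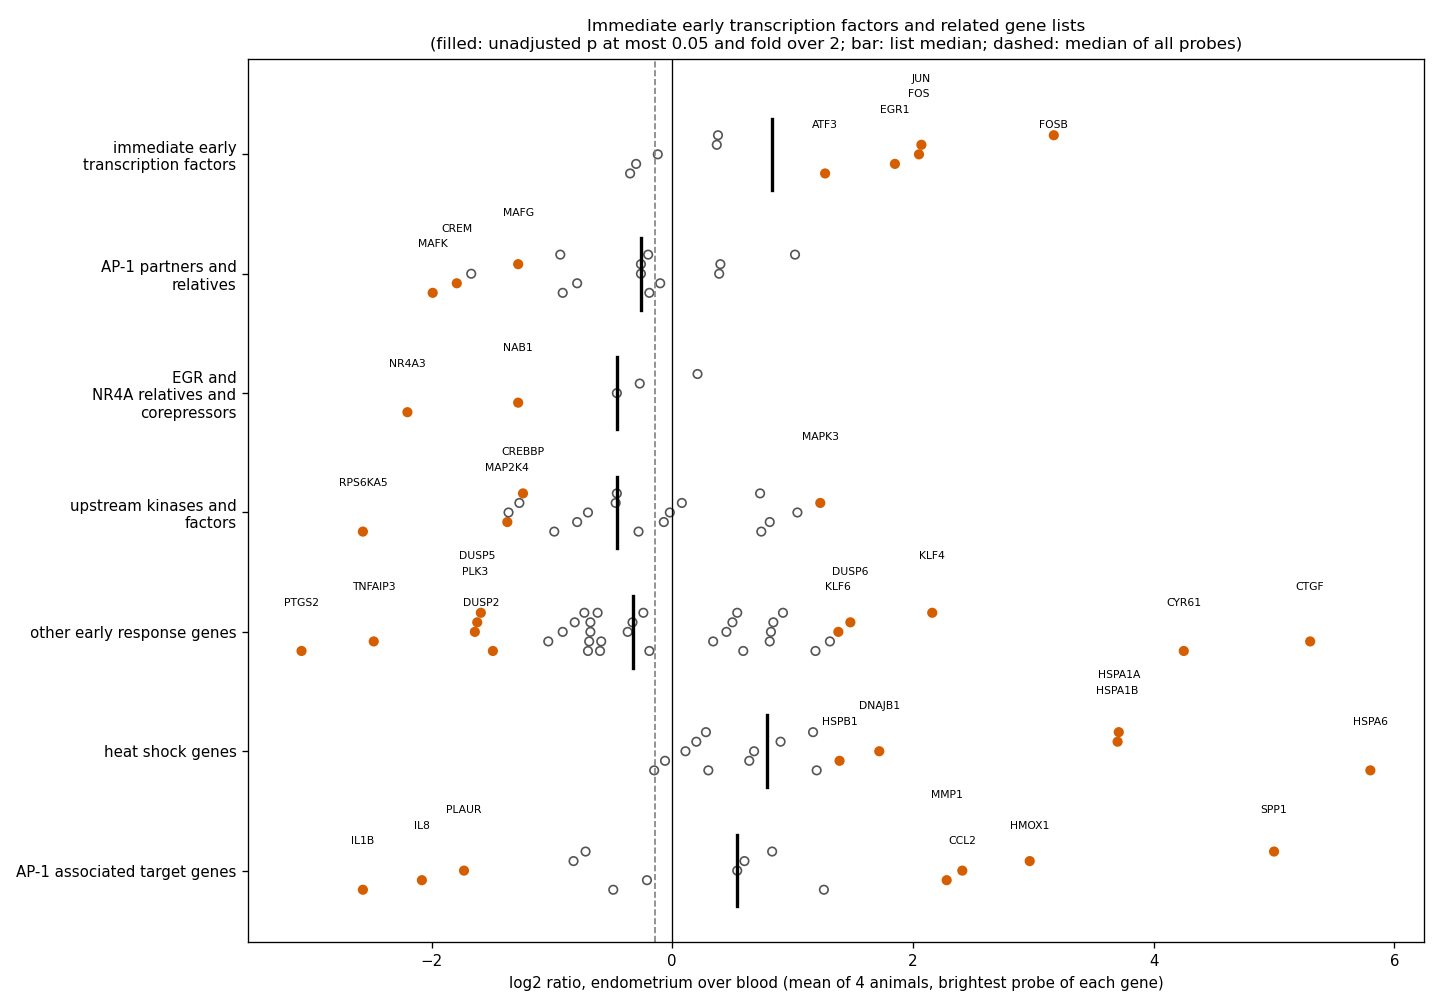
Log2 ratio of endometrium over blood (mean of 4 animals) of each gene of the immediate early factors and of 6 related lists, with genes at the unadjusted threshold filled, list medians as bars and the median of all probes, -0.14, as a dashed line. Filled genes of the factors and of the heat shock list lie to the right of 0, those of the AP-1 and EGR relatives to the left, and those of the other lists on both sides.

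Last, the profile of the 10 factors, their mean centred level in each preparation, was -0.17, -0.76, -0.56 and -0.59 in blood and 0.70, 0.57, 0.78 and 0.03 in endometrium of animals 1 to 4. Among 15434 other genes, those whose levels over the 8 preparations were most like it were HSPA6 (Pearson r = 0.982), the unnamed expressed sequence CB447653 (0.979), SNRPA (0.978), ACADS (0.975) and TSC22D1 (0.969), as a description. These preparations come in pairs from 4 animals and share arrays, and 143 genes had r over 0.9. The 5 genes had ratios of 5.80, 2.43, 0.45, 0.93 and 2.35, each higher in endometrium in 4 of 4 animals. They were chosen by a profile that was itself higher in endometrium in every animal, so their direction is not a separate result.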

How the data were processed

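RNA of 16 samples (CD14+ cells of endometrium and blood of 4 cows, 2 technical replicates) was measured on 8 Agilent bovine arrays with 2 colours. The authors deposited a table of log2 values, which they had put through lowess and then quantile normalization of the 16 channels, and scanner files with the intensity of each spot, in which the 2 files of an array were identical. Feature Extraction is given as version 9.5 in the submitters' notes and as 10.5.1.1 in the files. The log2 values were the main values. The scanner's processed intensities of each channel were replaced, rank for rank, by the values that a column holds. So mapped, the channel with the labeled dye in the file that belongs, by its label, to the animal's other replicate matched each column within 0.001 at 100% of the probes, spots averaged, and at 40.9% to 41.0% of single spots. The files were read accordingly. Reading them as attached would turn the sign in animals 1, 2 and 4. Spot flags were not applied to the table.

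Spots of a probe and technical replicates were averaged, and limma 3.58.1 (lmFit and eBayes, in R 4.3.3) tested the ratio within the 4 animals against 0. A probe entered the test if either tissue had 4 or more of its 8 channels well above background, which held for 16653 probes. A call needed an adjusted p (Benjamini-Hochberg) no higher than 0.05 and a change of more than 2-fold. An exact permutation test within 4 animals cannot give a p under 0.125. Between 63.1% and 81.5% of the probes of a channel were well above background. The test rests on 4 animals, whose number limits the precision. Both tissues of an animal share its number, and their deviations from tissue means correlated with r of 0.628, 0.372, 0.239 and 0.452.

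The members and lists were chosen with earlier results of these data known. All member probes are named, with up to 5 genes of each list in each direction at the unadjusted threshold and the 5 genes most like the members' profile. Gene names were those of the files, or of a RefSeq gene table (assembly ARS-UCD2.0), which named 13506 of 21475 probes. The methods combine a p threshold with a maximum false discovery rate, and a rate of 0.01 was tried as an alternative chosen after seeing the data. The other alternatives changed the signal and its normalization, the filter, the pairing, the technical replicates, the dye term, the test, the threshold and the animals. Values of qPCR and of flow cytometry were not analysed here.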

Additional observations from a re-analysis of the deposited data

Results flagged for a closer look

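Levels and ratios were examined in 33 groups of 4 values each. In 4 of these groups the highest or lowest value was set apart by most of the group's range. Chance gives about 1 in 20 for independent groups. These groups share the same animals, and the ratios are made from the levels, so the count is a description only. The endometrium of animal 4 was low for FOS, with a level of 14.41, and for FOSB probe 1, with a level of 14.80. The blood of animal 1 was high for FOSB probe 1, with a level of 14.26, and for FOSL2, with a level of 12.09. The gaps were 0.951, 0.844, 0.836 and 0.841 of the range of their groups.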

How the results depend on the processing

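Both tissues of an animal were treated as paired, and without the replicate block 38 probes were called over all probes in place of 224, and 0 of the 10 genes. Over all probes, 123 were called without a filter, 5 with normexp, loess and quantiles from the scanner signals, 0 with scanner files read as attached (45 higher and 80 lower at the unadjusted threshold), 0 by the methods' analysis of variance after adjustment (632 higher and 597 lower unadjusted), 2670 at the unadjusted threshold and 58, all higher in endometrium, at a false discovery rate of 0.01, an alternative chosen after seeing the data, at which 0 of the 10 genes were called. Leaving out 1 animal gave 0 to 180 probes: 64 without animal 1, 180 without animal 2, 95 without animal 3 and 0 without animal 4 (1335 higher and 1339 lower unadjusted). The unadjusted threshold took 5 of the 10 genes and 11 other early response genes. Of the 10 genes, 1 (FOSB) was called with technical replicate 2 alone, where 246 of 16653 probes were called. With the stricter filter 1 (FOSB) was called, where 273 of 13538 probes were, and 0 when any animal was left out. Of the other early response genes, 0 to 2 were called when 1 animal was left out.

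Reading the scanner files as attached turned the sign of FOS (-0.86), FOSB probe 1 (-1.01), FOSB probe 2 (-0.12), FOSL2 (0.64), JUN (-0.59), JUNB (-0.08), JUND (-0.08), EGR1 (-0.33) and ATF3 (-0.42), since it exchanges the tissues between channels in 3 animals. Otherwise only FOSL2 (0.16 from renormalized scanner signals, -0.61 to 0.70 when 1 animal was left out) and NR4A1 (-0.56 to 0.07 when 1 animal was left out) changed direction. The cause was not tested. Apart from the attached reading, the ratio was 1.74 to 2.65 at FOS, 2.85 to 3.58 at FOSB probe 1, 1.72 to 2.39 at JUN, 1.53 to 2.18 at EGR1 and 1.01 to 1.49 at ATF3. The median ratio of all probes was -0.14 with the deposited values and 0.02 from renormalized scanner signals, and with the latter all 5 called probes were higher in endometrium, in place of 91.1% of them, and 62.5% of those at the unadjusted threshold, in place of 49.8%.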
